A study of Mus musculus with 6 samples.

Results

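The genes described here encode secreted signals that T cells use to draw or sustain other leukocytes: 7 chemokines (Ccl1, Ccl3, Ccl4, Ccl5, Ccl9, Xcl1 and Cxcl10), the chemoattractant cytokine gene Il16, and Csf1, which encodes the macrophage growth factor M-CSF. They were given as a list of 9 names, found by symbol among the 46517 gene identifiers of the count tables, and all 9 passed the filter on low counts. Csf1 is a growth factor and not a chemokine, although it was listed with them.

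The study asked how mouse CD8 T cells respond to what basophils release. Naive T cells from spleen and lymph nodes of C57BL/6J mice were activated for 3 days on plates coated with antibody to CD3 (5 μg/mL), with antibody to CD28 (0.5 μg/mL) and IL-2 (100 units/mL). From day 1 to day 2 the cells also received supernatant from sorted basophils, which had been kept for 2 days in medium with IL-2 (100 units/mL) and either PBS or IL-3 at 3 ng/mL. Both groups therefore received IL-2 and basophil supernatant, and no library came from T cells given IL-3 without basophils, so the effects of IL-3 carried over in the supernatant and of basophil products cannot be told apart. There were 3 libraries per group. The labels do not say that the 3 came from different animals or wells, so each p-value refers to the spread of these libraries alone, which may be technical.

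Chemokines are small secreted proteins that bind G protein-coupled receptors on leukocytes and guide their migration. Activated CD8 T cells are well known to make CCL3, CCL4 and CCL5 together with XCL1, which draws XCR1-bearing dendritic cells. IL-16 is made as a large precursor whose C-terminal piece is cut off and attracts cells through CD4.

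Summed expected counts were 17377052 to 22174902 per library, so that 3 counts, the limit that a count of 0 allows, corresponded to 0.135 to 0.173 CPM, the counts scaled by library size and TMM factor. The 8 T cell markers (Cd3d, Cd3e, Cd3g, Trac, Cd2, Lck, Cd8a and Cd8b1) summed to 2634 to 2798 CPM with PBS supernatant and 1785 to 1951 CPM with IL-3 supernatant. By the edgeR test described below, 7 of the 8 were lower with IL-3 supernatant, against 16.1% of all genes tested. Of 10 basophil and mast cell markers, Mcpt8, Fcer1a, Ms4a2, Prss34 and Tpsb2 had no count in any library, and the list summed to 2.55 to 3.56 CPM with PBS and 0.715 to 1.80 CPM with IL-3 supernatant. Without Kit it summed to 0.277 to 0.342 and 0.153 to 0.991 CPM, the highest value being IL-3 replicate 2, where Hdc had 20 counts and Kit 18. Of 10 macrophage and monocyte markers, Fcgr1, C1qa and C1qb had no count, and the list summed to 1.66 to 2.74 and 1.35 to 2.65 CPM, mostly from Cd68. The 6 dendritic cell markers summed to 3.14 to 5.12 and 5.92 to 8.17 CPM, mostly from Zbtb46, with Siglech at 0. The 6 B cell markers summed to 292 to 324 and 109.6 to 131 CPM, but without Ighm to 2.78 to 3.77 and 2.99 to 3.22 CPM. The 4 NK cell markers stayed at or below 0.111 CPM with PBS and 0.0901 CPM with IL-3 supernatant, and the 5 neutrophil markers had no count. The CD4 T cell marker Cd4 was at 0.445 to 0.831 CPM with PBS and 0 to 0.495 CPM with IL-3 supernatant, while Zbtb7b was higher with IL-3 supernatant. In bulk RNA, fewer cells of a type and less RNA per cell cannot be told apart, and the part of T cell, Kit, Hdc, Zbtb46 and Ighm differences in the results was not tested.

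With IL-3 supernatant, 6 of the 9 genes were lower (Ccl1, Cxcl10, Il16, Xcl1, Ccl3 and Ccl4), 2 were higher (Csf1 and Ccl9), and Ccl5 did not pass the test (edgeR's quasi-likelihood test, Benjamini-Hochberg adjusted p below 0.05 over 12407 genes). Over all genes tested, 30.9% were called, 16.1% as lower and 14.8% as higher. The groups did not overlap in CPM for 8 of the 9 genes, against 43.6% of all genes tested. The median log2 fold change was -0.49 for the 9 genes, and -0.00 for all genes tested. No call of the 9 changed when any 1 library was left out. The edgeR adjusted p then came close to the threshold, at most 0.0490 for Ccl4 and 0.0484 for Cxcl10. Within the IL-3 group, replicate 3 was the highest library for 7 of the 9 genes and the lowest for none.

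**Figure D1:**
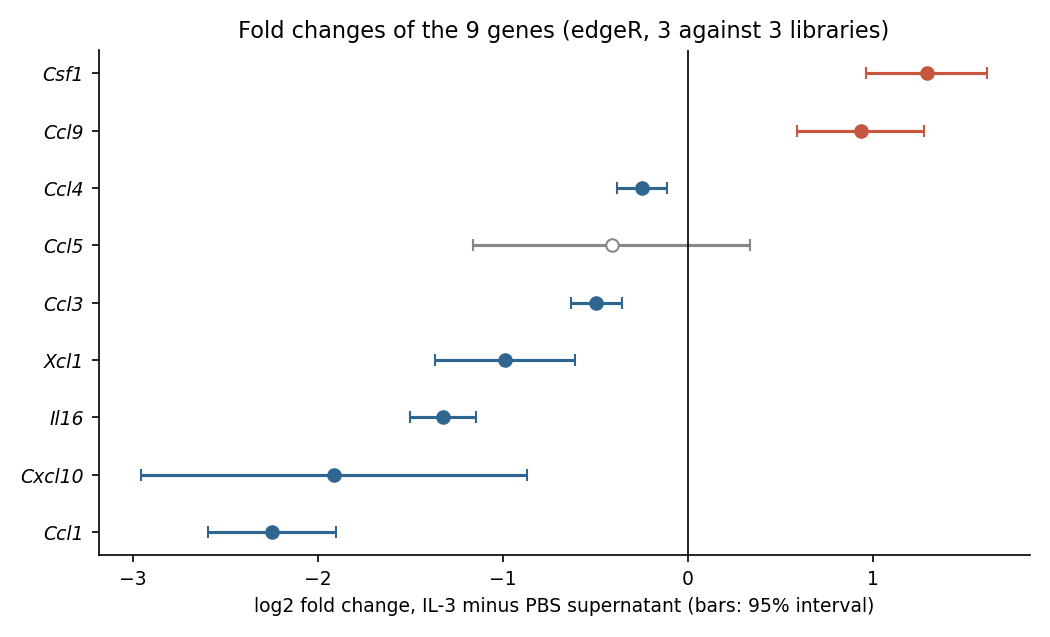
Log2 fold change (IL-3 minus PBS supernatant) of each of the 9 genes, with its 95% interval from edgeR's quasi-likelihood fit on 3 libraries per group. The change runs from -2.25 for Ccl1 to 1.29 for Csf1, and the interval of Ccl5 includes 0.

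Upstream regions of 7 of the 9 genes (all but Ccl4 and Ccl5) were taken from RefSeq on GRCm38.p6, and the 250 bases before each start were searched on both strands for 8 short motifs. The 4 regions printed here hold κB-type letters (GGGA, any 4 bases, then CC), which occur in 17.6% of 32851 such regions from 27025 genes. They are printed because they precede both a gene that rose (Csf1) and genes that fell (Ccl1, Cxcl10 and Il16). Each runs 5′ to 3′ on the strand of its gene, ending 1 base before the start site. Capitals mark the κB-type letters, and in Cxcl10 also the letters of an interferon-stimulated response element (GAAA, any 2 bases, then GAAA), which occur in 2.98% of regions. The Ccl1 region is chr11:82179813-82180062, that of Cxcl10 is chr5:92348890-92349139, that of Csf1 is chr3:107760470-107760719 and that of Il16 is chr7:83655496-83655745, all on the minus strand.
Ccl1: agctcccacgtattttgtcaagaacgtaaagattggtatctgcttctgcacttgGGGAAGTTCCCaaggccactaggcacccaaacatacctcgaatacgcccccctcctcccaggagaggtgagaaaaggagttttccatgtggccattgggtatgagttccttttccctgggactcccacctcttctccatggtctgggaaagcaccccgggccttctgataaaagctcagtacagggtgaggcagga
Cxcl10: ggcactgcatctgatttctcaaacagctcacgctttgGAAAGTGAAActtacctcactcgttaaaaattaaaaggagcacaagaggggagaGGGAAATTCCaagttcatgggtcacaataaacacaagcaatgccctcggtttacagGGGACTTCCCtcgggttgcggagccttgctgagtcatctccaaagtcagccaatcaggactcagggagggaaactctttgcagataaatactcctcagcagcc
Csf1: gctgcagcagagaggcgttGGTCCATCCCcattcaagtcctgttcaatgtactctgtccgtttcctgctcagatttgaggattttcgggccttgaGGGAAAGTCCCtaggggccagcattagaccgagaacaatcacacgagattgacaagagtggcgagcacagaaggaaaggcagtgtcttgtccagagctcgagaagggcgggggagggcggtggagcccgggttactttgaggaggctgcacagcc
Il16: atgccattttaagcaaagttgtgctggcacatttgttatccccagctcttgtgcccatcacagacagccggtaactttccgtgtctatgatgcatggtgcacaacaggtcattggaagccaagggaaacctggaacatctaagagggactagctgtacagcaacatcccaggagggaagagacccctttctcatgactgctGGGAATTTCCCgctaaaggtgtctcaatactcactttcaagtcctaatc
In Ccl1, in Il16 and in the longer match of Csf1 the letters occur on both strands, shifted by 1 base, so 11 capitals appear. Csf1 holds a match at -231 to -222 on the opposite strand and another at -155 to -145. Cxcl10 holds the interferon-type letters at -213 to -204 and κB-type letters at -159 to -150 and -103 to -94. The AP-1 letters TGANTCA (6.75% of regions) occurred before Cxcl10, Ccl9 and another start of Il16. The RUNX letters TGTGGT (14.0%) occurred before Ccl3 and Xcl1, the NFAT letters GGAAAA (20.4%) before Ccl1 and Ccl3, and the T-box letters GGTGTGA (3.33%) before Xcl1. Neither the GAS letters TTCNNNGAA (7.02%) nor the STAT6 letters (TTC, any 4 bases, then GAA, 5.85%) occurred in these windows. A match describes the letters and does not show binding.

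The 3 most abundant of the genes were Xcl1, Ccl3 and Ccl4. Levels between genes were compared as TPM, which correct for transcript length. With PBS supernatant, mean TPM over 3 libraries was 2144 ± 180 (SD) for Xcl1, 1184 ± 26.9 for Ccl3 and 609 ± 26.4 for Ccl4. With IL-3 supernatant the order was kept, at 1102 ± 199.5, 856 ± 82.8 and 522 ± 40.6 TPM. Their ranges did not overlap between neighbours in either group. These 3 genes held 98.1 to 98.3% of the summed TPM of the 7 chemokine genes with PBS supernatant and 98.9% in each library with IL-3 supernatant. The sum itself was 3763 to 4166 TPM with PBS supernatant and 2311 to 2884 TPM with IL-3 supernatant. By mean TPM, Xcl1 ranked 71 among all genes with PBS supernatant and 141 with IL-3 supernatant.

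**Figure D2:**
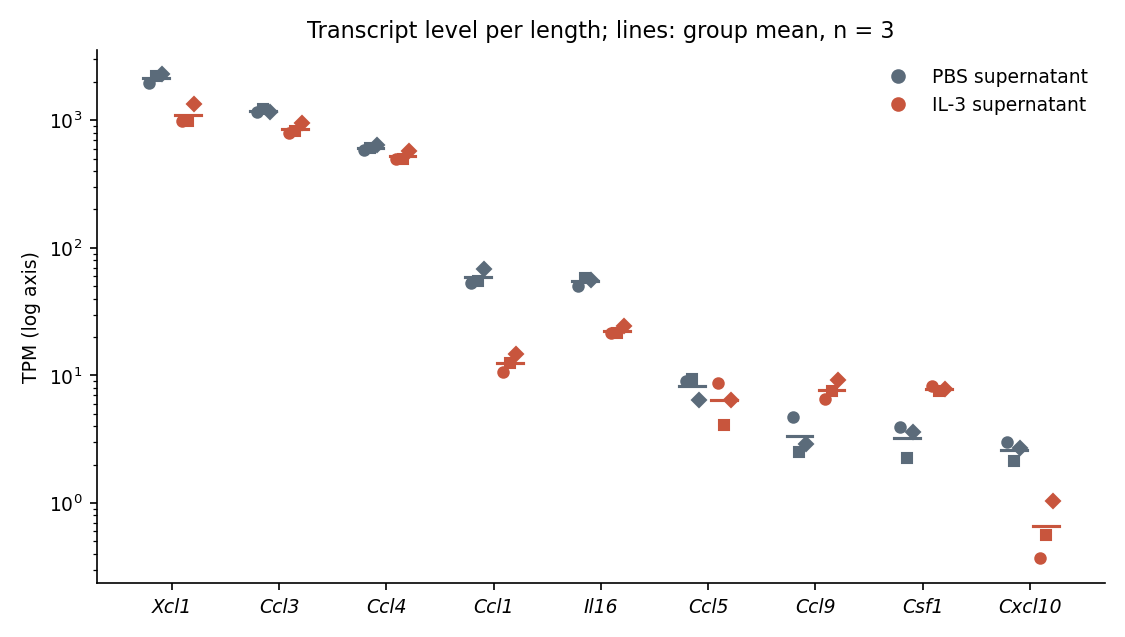
TPM of the 9 genes in each of 6 libraries on a log axis, by group, with a line at the group mean. Xcl1, Ccl3 and Ccl4 lie above all others, while Cxcl10 is the lowest in mean in both groups.

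Below these 3, the PBS order was Ccl1 (58.9 ± 8.31 TPM), Il16 (54.96 ± 4.20), Ccl5 (8.30 ± 1.68), Ccl9 (3.36 ± 1.18), Csf1 (3.25 ± 0.878) and Cxcl10 (2.60 ± 0.434). The ranges of Ccl1 and Il16, of Ccl9 and Csf1, and of Csf1 and Cxcl10 overlapped. With IL-3 supernatant the order was Il16 (22.4 ± 1.59 TPM), Ccl1 (12.6 ± 2.06), Csf1 (7.85 ± 0.307), Ccl9 (7.73 ± 1.30), Ccl5 (6.40 ± 2.30) and Cxcl10 (0.654 ± 0.343). There the ranges of Csf1 and Ccl9, and of Ccl9 and Ccl5, overlapped. Ccl1 thus stood above Il16 in mean with PBS supernatant and below it, without overlap, with IL-3 supernatant. TPM of Ccl9 followed its CPM loosely, with 0.615 to 0.960 TPM per CPM in PBS and 0.791 to 1.01 in IL-3 libraries.

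Xcl1 (ENSMUSG00000026573, chr1:164931644-164935527, minus strand, GRCm38) encodes lymphotactin. It stood at 514, 624 and 613 CPM in PBS replicates 1, 2 and 3 and at 264, 265 and 353 CPM in IL-3 replicates 1, 2 and 3. Every IL-3 library lay below every PBS library, and IL-3 replicate 3 lay closest to the PBS group. The log2 fold change was -0.99 (SE 0.15, 95% interval -1.37 to -0.61), a level 1.99-fold lower (adjusted p = 0.0054, edgeR's quasi-likelihood test). Xcl1 overlaps Gm20743 on the opposite strand, which held 38 to 141 counts against 5136 to 11267 for Xcl1 and was 1.98-fold lower with IL-3 supernatant (edgeR adjusted p = 0.0139). The strand setting of the counting is not given in the sources used here, so reads of the overlapping pair cannot be told apart.

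Ccl3 (ENSMUSG00000000982, chr11:83647844-83649355, minus strand) and Ccl4 (ENSMUSG00000018930, chr11:83662584-83664683, plus strand) encode related inflammatory chemokines that draw monocytes and T cells, and they lie 13228 bases apart. Ccl3 had 453, 503 and 459 CPM with PBS supernatant and 314, 322 and 369 CPM with IL-3 supernatant. The groups were apart, and the log2 fold change was -0.49 (SE 0.06, 95% interval -0.63 to -0.36), or 1.41-fold lower (edgeR adjusted p = 2.2e-05). Ccl4 had 194, 218 and 215 CPM with PBS supernatant and 169, 169 and 190.07 CPM with IL-3 supernatant. Its groups were apart by a narrow gap, between IL-3 replicate 3 and PBS replicate 1. Its log2 fold change was -0.25 (SE 0.06, 95% interval -0.38 to -0.11), or 1.19-fold lower (edgeR adjusted p = 0.0061). On log2 TPM with limma, Ccl4 moved the same way but missed the threshold, with adjusted p of 0.0508, 0.0519 and 0.134 in 3 variants.

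The ratios between the 3 abundant transcripts were also compared. Within each library, TPM of Ccl3 divided by that of Ccl4 was 2.01, 1.99 and 1.84 with PBS supernatant and 1.60, 1.64 and 1.67 with IL-3 supernatant. TPM of Xcl1 divided by that of Ccl3 was 1.66, 1.82 and 1.96 with PBS supernatant and 1.23, 1.21 and 1.40 with IL-3 supernatant. In both ratios every IL-3 library lay below every PBS library. The exact two-sided permutation test gave p = 0.1 for each of these 2 ratios (adjusted 0.1). That is the smallest value that 3 against 3 libraries allow. The test could not reach a threshold of 0.05 whatever the ratios were, so it does not decide whether they differ.

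**Figure D3:**
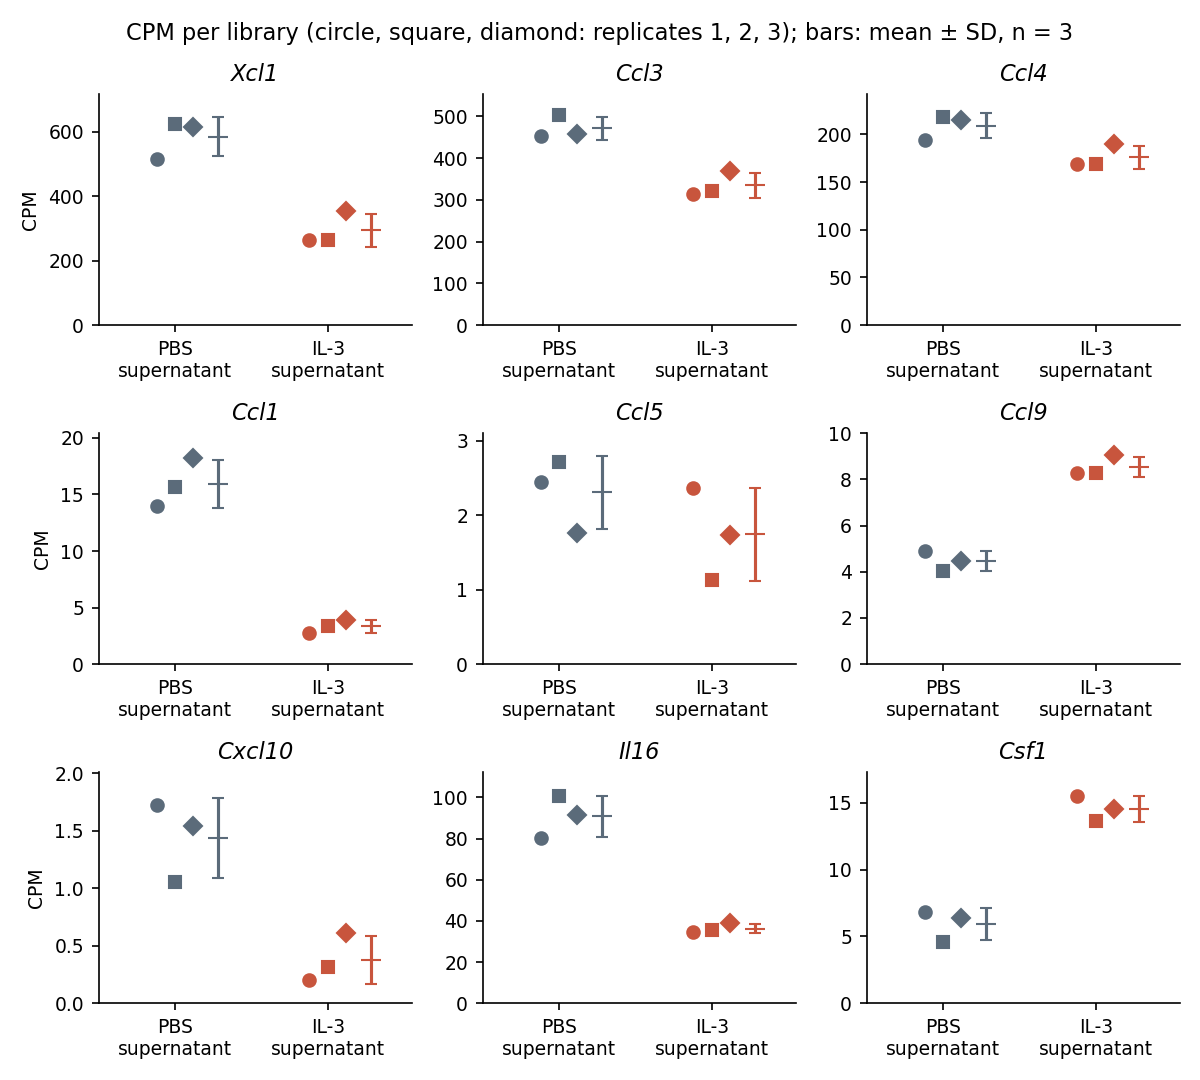
CPM of each of the 9 genes by library, with the group mean and SD (3 libraries per group). The groups are apart for all genes but Ccl5.

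Ccl5 (ENSMUSG00000035042, chr11:83525778-83530518, minus strand) encodes RANTES, which is typical of effector and memory CD8 T cells. It was low in both groups. CPM were 2.45, 2.72 and 1.77 with PBS supernatant and 2.37, 1.13 and 1.74 with IL-3 supernatant, from 25 to 49 counts per library. The groups overlapped. The log2 fold change was -0.41 (SE 0.35, 95% interval -1.16 to 0.34), with edgeR adjusted p = 0.43. In linear terms the interval ran from 0.447 to 1.26 of the PBS level, so at this depth neither a fall of the size seen for Xcl1 nor an unchanged level was outside it.

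Ccl1 (ENSMUSG00000020702, chr11:82176657-82305690, minus strand) encodes the ligand of CCR8 and had the largest fall of the 9. The 3 PBS libraries held 252, 282 and 319 counts, or 14.0, 15.6 and 18.2 CPM. The 3 IL-3 libraries held 54, 75 and 76 counts, or 2.78, 3.38 and 3.88 CPM. The groups lay far apart, and the mean fell from 15.9 ± 2.10 to 3.35 ± 0.550 CPM (SD, n = 3). The log2 fold change was -2.25 (SE 0.16, 95% interval -2.59 to -1.90), a level 4.76-fold lower (edgeR adjusted p = 1.4e-08). Both isoforms that made up Ccl1 in PBS replicate 2, the library with isoform values, start at the RefSeq start whose upstream region is printed above.

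Ccl9 (ENSMUSG00000019122, chr11:83572919-83578636, minus strand), a CCR1 ligand of rodents, moved the opposite way. It had 4.90, 4.05 and 4.45 CPM with PBS supernatant and 8.29, 8.29 and 9.04 CPM with IL-3 supernatant, from 73 to 184 counts per library. All IL-3 libraries exceeded all PBS libraries. The log2 fold change was 0.93 (SE 0.16, 95% interval 0.59 to 1.28), or 1.91-fold higher (edgeR adjusted p = 0.00027). Ccl9 lies on chromosome 11 between Ccl5, 42400 bases away, and Ccl3, 69207 bases away. Within this stretch Ccl9 was higher, Ccl3 and Ccl4 were lower and Ccl5 did not pass the test.

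Cxcl10 (ENSMUSG00000034855, chr5:92346638-92348889, minus strand) encodes an interferon-induced ligand of CXCR3. It was the least abundant of the 9, with 31, 19 and 27 counts with PBS supernatant and 4, 7 and 12 counts with IL-3 supernatant. In CPM the PBS libraries stood at 1.72, 1.05 and 1.54 and the IL-3 libraries at 0.206, 0.315 and 0.613. The groups were apart, with a wide spread within each. Its log2 fold change was -1.91 (SE 0.49, 95% interval -2.96 to -0.87), or 3.77-fold lower (edgeR adjusted p = 0.0067). Leaving out 1 library at a time moved it between -2.42 and -1.63, with adjusted p of at most 0.0484. On log2(TPM + 1), where the pseudocount is close to the level itself, limma gave -1.14.

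Csf1 (ENSMUSG00000014599, chr3:107741048-107760469, minus strand) encodes M-CSF, which sustains monocytes and macrophages through CSF1R. It had 123, 82 and 112 counts with PBS supernatant and 301, 302 and 284 counts with IL-3 supernatant. The CPM were 6.84, 4.54 and 6.39 against 15.5, 13.6 and 14.5, so the lowest IL-3 library stood well above the highest PBS library. The mean rose from 5.92 ± 1.22 to 14.5 ± 0.951 CPM (SD, n = 3). This is a log2 fold change of 1.29 (SE 0.15, 95% interval 0.97 to 1.62), a level 2.45-fold higher (edgeR adjusted p = 5.7e-06). In PBS replicate 2, 77.6% of Csf1 TPM was assigned to the 4176-base protein-coding isoform, 12.1% to one of 2097 bases and 10.3% to a retained-intron transcript.

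Il16 (ENSMUSG00000001741, chr7:83642825-83745726, minus strand) had the smallest adjusted p of the 9. PBS libraries stood at 80.4, 101 and 91.3 CPM and IL-3 libraries at 34.6, 35.4 and 38.8 CPM. The IL-3 libraries were tightly grouped below all PBS libraries. On the log2 scale the difference was -1.32 (SE 0.08, 95% interval -1.502 to -1.15), a level 2.50-fold lower (edgeR adjusted p = 3.0e-09). Il16 was the only 1 of the 9 genes whose expected counts were not whole, which they were not in any of the 6 libraries. It overlaps Stard5 on the opposite strand, which had 205 to 346 counts and was 1.27-fold higher with IL-3 supernatant (edgeR adjusted p = 0.0339).

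In PBS replicate 2, 94.2% of Il16 TPM was assigned to the 7-exon isoform (3183 bases, 55.0 TPM). The 19-exon isoform (5260 bases) held 1.71% at 1.00 TPM, and a retained-intron transcript held 4.07%. The annotated start of the 7-exon isoform, base 83655495, is the one before which the printed region ends. The other RefSeq starts of Il16 lie 76903 and 80044 bases upstream. Isoform values were listed for this library only, so isoforms were not compared between groups.

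Among receptor genes listed for these signals, Ccr8 and Cxcr3 passed the filter and were called. Ccr8, the receptor of CCL1, had 0.835, 1.44 and 1.71 CPM with PBS supernatant and 41.5, 43.4 and 38.6 CPM with IL-3 supernatant. It rose by 4.95 on the log2 scale (SE 0.16, edgeR adjusted p = 7.4e-13), while its ligand gene Ccl1 fell. Cxcr3, the receptor of CXCL10, had 21.5, 22.9 and 27.5 CPM and then 7.06, 6.30 and 5.92 CPM, with a log2 difference of -1.90 (SE 0.13, 3.73-fold lower, edgeR adjusted p = 6.2e-09). Cxcr3 thus fell along with Cxcl10, and the groups were apart for both. Receptor genes below the filter had few counts. Summed over 3 libraries, Xcr1 had 17 with PBS and 22 with IL-3 supernatant, Csf1r 2 and 0, Cd4 37 and 19, and Ccr1 3 and 13, the 13 all in IL-3 replicate 1.

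**Figure D4:**
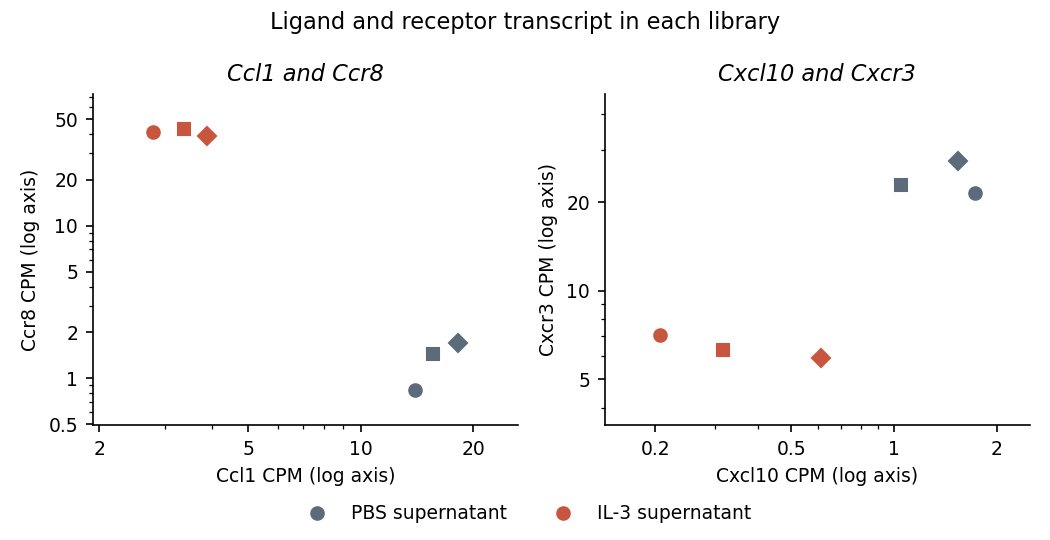
CPM of a ligand gene (horizontal log axis) against that of its receptor gene (vertical log axis) in each of the 6 libraries, for 2 pairs, with circle, square and diamond for replicates 1, 2 and 3. Ccr8 rose while Ccl1 fell, and Cxcr3 fell along with Cxcl10.

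Of 31 other chemokine ligand genes, 14 had no count in any library and 4 passed the filter. Among these 4, Ccl20, which encodes the ligand of CCR6, was higher. It had 29, 18 and 29 counts with PBS supernatant and 88, 88 and 86 with IL-3 supernatant, which made it 3.01-fold higher (log2 1.59, SE 0.29, edgeR adjusted p = 0.00038). Ccl25, Ccl27a and Cxcl16 did not pass, with log2 fold changes of 0.37, 0.73 and 0.38 and edgeR adjusted p of 0.43, 0.22 and 0.56. Ccl9, Csf1 and Ccl20 were thus the genes called higher among these secreted signals, each below 20 CPM, whereas the 3 abundant chemokine genes were lower.

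Among 13 genes of interferon signalling listed as upstream of Cxcl10, 4 were higher, 6 were lower and 3 did not pass. Of all genes tested, 14.8% were higher and 16.1% lower. Ifng, which encodes interferon gamma, rose by 0.96 on the log2 scale (SE 0.05, edgeR adjusted p = 7.4e-10), and Jak2 rose from 90.4 ± 2.32 to 194 ± 16.6 CPM. Ifngr1, which encodes the ligand-binding chain of its receptor, fell from 96.5 ± 4.64 to 33.0 ± 2.36 CPM. Cxcl10 therefore fell beside lower Ifngr1 and beside higher Ifng.

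Of 16 genes of factors known to act on chemokine genes in T cells, 6 were higher, 5 were lower and 5 did not pass. The shares of all genes tested were 14.8% higher and 16.1% lower. Nfkb1, which encodes a subunit that binds κB sites, rose from 651 ± 15.4 to 987 ± 40.8 CPM. Rel and Rela, other genes of such subunits in the list, were named after their values were seen. Rel rose by 0.30 on the log2 scale (edgeR adjusted p = 0.0012), and Rela did not pass (log2 -0.09, edgeR adjusted p = 0.43). The AP-1 gene Junb rose by 0.74 on the log2 scale (edgeR adjusted p = 2.8e-08). Nfatc1 fell from 248 ± 7.12 to 155 ± 5.07 CPM, and the T-box gene Eomes had a log2 fold change of -1.86. Tbx21, the other T-box gene of the list, named after its value was seen, rose from 74.8 ± 4.31 to 99.4 ± 1.54 CPM (log2 0.41, edgeR adjusted p = 5.2e-05). Of 8 genes for processing, storage and release of secreted proteins, 3 were higher, 2 were lower and 3 did not pass, beside the same shares of all genes tested. Dpp4, whose product trims and inactivates CXCL10 and other chemokines, fell by 1.77 on the log2 scale (SE 0.08, edgeR adjusted p = 3.3e-11). Furin, a proprotein convertase, rose from 97.1 ± 6.15 to 326 ± 17.3 CPM, and Srgn, the proteoglycan of secretory granules, rose from 219 ± 23.8 to 382 ± 21.6 CPM. Adam10, a sheddase of membrane-bound ligands, fell from 196 ± 14.9 to 159 ± 14.5 CPM, a call lost on log2 TPM without a filter.

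The genes whose pattern over the 6 libraries was closest to each of the 9 were found by the root mean square difference of centred log2 CPM, a description that follows mainly from the change between groups. Ccl1 was nearest to the guanylate-binding protein genes Gbp2 (0.0887) and Gbp4 (0.0895), and Cxcl10 to Gbp9 (0.296) and Fbln1 (0.302). Il16 was nearest to Ifi47 (0.0317) and Cdkn2c (0.0619), and Xcl1 to Zbp1 (0.0746) and Slc25a45 (0.0878). Gbp2, Gbp4, Gbp9, Ifi47 and Zbp1 are interferon-inducible genes. Ccl3 was nearest to Smyd3 (0.0173) and Ankrd50 (0.0480), and Ccl4 to Acsl5 (0.0223) and Spn (0.0226). Csf1 was nearest to Cep290 (0.108) and Sdc1 (0.112), and Ccl9 to Csnk1e (0.0466) and Heg1 (0.0544). For Ccl5 the nearest were Zfand2b (0.175) and Prickle1 (0.187). Among the 9 themselves, the nearest pairs were Ccl3 and Ccl4 (0.132), Xcl1 and Il16 (0.187) and Ccl9 and Csf1 (0.228).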

How the data were processed

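Polyadenylated RNA of 6 libraries of mouse CD8 T cells was sequenced, 3 per group, with groups taken from the titles. The authors deposited expected counts per gene, which divide ambiguous reads among genes, for every library. They also deposited TPM, abundances scaled for transcript length and library. For PBS replicate 2 these were listed by isoform and were summed per gene (99.7% matched a gene), and the other 5 libraries had them by gene. RSEM 1.2.12, Bowtie2 2.2.0, edgeR 3.20.9 and GRCm38 are named in the submitters' processing notes, without their roles. The annotation and the strand setting of the counting were not given in the sources used here. Symbols matched 46005 of 46517 identifiers, and coordinates come from GENCODE on GRCm38.

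Expected counts were rounded and tested with edgeR 4.0.16 in R 4.3.3: filterByExpr, TMM, robust quasi-likelihood fit on group alone, Benjamini-Hochberg over 12407 genes, threshold 0.05. Each SE is the absolute log2 fold change divided by the square root of F, and intervals use the fit's total degrees of freedom. Ratios between genes used exact permutation tests. Scripts were tested on simulated data.

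Named genes are the 9, the tested receptors and other chemokine ligands, up to 4 genes of each other list with the smallest p, and the 2 genes nearest in pattern to each of the 9 (average log2 CPM of 2 or more, no model names). Some results under this rule are not reported here. Members, lists and motifs were chosen with earlier results of these data known, the motifs after the fit was seen. Alternatives were DESeq2 1.42.0 and its size factors, library size only, other filters, limma 3.58.1 (voom, and log2 TPM with pseudocounts), a replicate block, a threshold of 0.01 and each library left out. Tables were handled in Python 3.11.15 with pandas 2.3.3 and plotted with matplotlib 3.10.9.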

Additional observations from a re-analysis of the deposited data

How the results depend on the processing

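Of 153 values of the 9 genes under alternatives, 149 kept their direction and their side of the threshold, 4 kept direction but missed the threshold, and 0 reversed. On log2 TPM with limma, Ccl4 missed it in all 3 fits at a log2 difference of -0.22 (pseudocount of 1, of 0.1, and 1 without a filter), and Ccl9 missed it at 1.02 without a filter (adjusted p = 0.0653), leaving 1 of the 9 called higher there. The causes were not tested. Over all genes, limma on log2(TPM + 1) called 1324 lower, log2(TPM + 0.1) called 1307 lower, and log2(TPM + 1) without a filter called 1103 higher and 1030 lower. A threshold of 0.01 left 1217 higher. The main counts were 1834 higher and 2001 lower.

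Leaving out each library gave 1456 to 1916 genes higher and 1601 to 2102 lower, and always 2 of the 9 higher and 6 lower. The log2 fold change then ranged from -2.36 to -2.14 for Ccl1, -0.57 to -0.43 for Ccl3, -0.31 to -0.21 for Ccl4, -0.69 to -0.16 for Ccl5, 0.88 to 1.01 for Ccl9, -1.14 to -0.91 for Xcl1, 1.15 to 1.41 for Csf1 and -1.41 to -1.23 for Il16. Zfand2b, a nearest gene of Ccl5 that was not called, had values from -0.34 to 0.053, the latter a reversal without IL-3 replicate 2. Of 37 genes outside the 9 that the naming rule gave, 29 kept call and direction under every alternative run. Removing CT010467.1, which held 4.51% of the counts of PBS replicate 2, was chosen after seeing the data and changed no call of the 9.

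Same-numbered libraries did not deviate together in all pairs (correlations of -0.15, 0.05 and 0.25), so the numbers were not taken to pair the samples. With the replicate number as a block, 1634 genes were higher and 1776 lower, with 2 of the 9 higher and 6 lower. Depth limits Cxcl10 and Ccl5 most, since both had fewer than 50 counts in every library.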

Other observations

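Several chemokine genes below the filter had counts mainly in 1 group, which were too few to test. Summed over 3 libraries, Cxcl13, which encodes a B cell chemoattractant, had 1 count with PBS supernatant and 25 with IL-3 supernatant. The neutrophil chemoattractant genes Cxcl3 and Cxcl2 had 0 counts with PBS supernatant and 12 and 9 with IL-3 supernatant, of which 9 and 8 came from IL-3 replicate 3. Cx3cl1 had 1 and 10 counts. The other CXCR3 ligand genes, Cxcl9 and Cxcl11, had 4 and 2 counts with PBS supernatant and 0 each with IL-3 supernatant. Ccl22, which encodes a CCR4 ligand, had 15 counts in each group.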
